A study of Homo sapiens with 12 samples.

Results

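Hypoxia-inducible and HIF target genes outside glycolysis were followed with 12 whole-genome arrays in MDA-MB-231 cells, an established human cell line derived from metastatic triple-negative breast cancer. The set was chosen with earlier results of these data known. It holds 32 listed genes, taken by name as known hypoxia-induced or direct HIF targets without enzymes of glycolysis or collagens. Of these, 31 had at least 1 probe set that carried only their symbol, 87 probe sets in all out of 54613 that are not controls, and the 31 genes stood among 19775 measured genes. CA9 was not analysed here. The study compared 3 groups of 4 arrays, with replicates lettered A to D. The controls were cells with a retroviral GFP hairpin (shGFP), the shHIF group had retroviral hairpins against HIF1a and HIF2a, and the Sharp1 group overexpressed Sharp1, the repressor encoded by BHLHE41. All were grown in DMEM/F12 with serum under normal conditions, and no label names an exposure to low oxygen. The sources used here do not give the vector of the Sharp1 cells or a matched empty vector, and both lines were compared with the GFP hairpin. The replicates are labelled biological without a word on separate cultures or clones, and the p-values cover only the array-to-array spread, which may be technical.

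Hypoxia-inducible factors are pairs of an oxygen-regulated alpha subunit, HIF1 alpha or HIF2 alpha, with the constant partner ARNT. When oxygen is plentiful the alpha subunits are hydroxylated and destroyed through the VHL ubiquitin ligase, and when it is scarce they accumulate and switch on genes for blood vessel growth, pH control, fat storage, invasion and chromatin change. Sharp1 is a basic helix-loop-helix protein that represses transcription and has been studied as an antagonist of HIF in breast cancer, which is the question behind the comparison.

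Both hairpin targets were lower in shHIF, and the probe sets of BHLHE41 disagreed. EPAS1, the gene of HIF2 alpha, read 9.53 in control and 6.68 in shHIF, and HIF1A read 12.78 and 12.05, in mean log2 values over 4 arrays. Of 4 BHLHE41 probe sets, 2 were higher in Sharp1, from 3.89 to 9.24 and from 4.42 to 6.01, another was lower, from 6.62 to 4.56, and the last was not called. The lower one is the brightest over all arrays. Taking the brightest probe set for each gene, as done below, thus gives BHLHE41 as lower in Sharp1 (-2.06), against its other called probe sets. EPAS1 also fell in Sharp1 cells, by 0.71. Both EPAS1 falls are those of its brightest probe set, and its other probe sets, dim at 3.22 to 4.00 in the group means, were not called. Of 6 markers of the line, VIM, CD44, AXL, CAV1 and ETS1 read 11.17 or more in every group. Among them, CD44 (0.90) and VIM (0.08) were called higher in Sharp1, and ETS1 (-0.34) and AXL (-0.17) lower. In shHIF, CAV1 (-0.28) and VIM (-0.26) were called lower. SPARC, the remaining marker, read 3.67 to 3.98, below the median probe set of 5.41. Of 6 luminal markers, PGR and CDH1 lay below that median in every group, while KRT8, EPCAM, GATA3 and ESR1 read 11.59, 9.54, 8.57 and 6.27 in control, and EPCAM was lower in Sharp1 (-0.62) and in shHIF (-0.34), where KRT8 was lower (-0.13) and GATA3 higher (0.25). Their summed linear level was 4130 to 4520 in control, 3940 to 4020 in shHIF and 4060 to 4430 in Sharp1. Of 5 endothelial markers, CDH5, KDR and TEK lay below the median in every group, VWF near it, and PECAM1 read 6.86 in control and was lower in Sharp1 (-0.42). The summed endothelial level was 216 to 242 in control, 222 to 246 in shHIF and 185 to 207 in Sharp1, and that of 5 fibroblast markers was 346 to 384, 355 to 401 and 327 to 398. Summed leukocyte markers were 575 to 647 in control, 537 to 558 in shHIF and 192 to 197 in Sharp1, a difference carried by LAPTM5 (9.04 and 6.86 in log2), while PTPRC, CD3E and CD14 were at 5.03 or less in every group mean. Dim as it was, PTPRC was called higher in Sharp1 (0.44) and in shHIF (0.37), and LAPTM5 was also lower in shHIF (-0.17). Mean log2 signal of the spike-in controls was lowest on shHIF A (10.39) and shHIF D (10.45), and ran from 10.63 to 10.81 on the other 10 arrays. The 3′ to 5′ difference of actin, which grows as RNA degrades, was 0.90 to 0.94 on shHIF A, B and C and 0.56 to 0.85 elsewhere, and the part of these markers and array measures in the results was not tested. In such bulk RNA, fewer cells with a transcript and less transcript per cell cannot be told apart.

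Against control, the set was lowered more often than raised in both lines. Tested directly against each other, the lines differed for 20 of the 31 members, or 64.5%, against 38.4% of all genes. Bright genes are called more often, and shares at like signal are given below. In Sharp1 cells 14 of 31 genes fell and 3 rose, led by the falls of CEMIP (log2 -1.99), CA12 (-1.20), STC1 (-1.14) and EFNA1 (-0.99). In shHIF cells 11 fell and 4 rose, led by the falls of L1CAM (-1.92), ZNF395 (-1.27) and NDRG1 (-1.02) and by a rise of STC1 (0.96). STC1 and TMEM45A fell in Sharp1 and rose in shHIF, and VEGFA and ANKRD37 did the opposite. Calls are limma tests at an adjusted p under 0.05 over 19775 genes, on the brightest probe set of each gene, and values are log2 expression or differences of mean log2 values with 4 arrays per group.

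**Figure D1:**
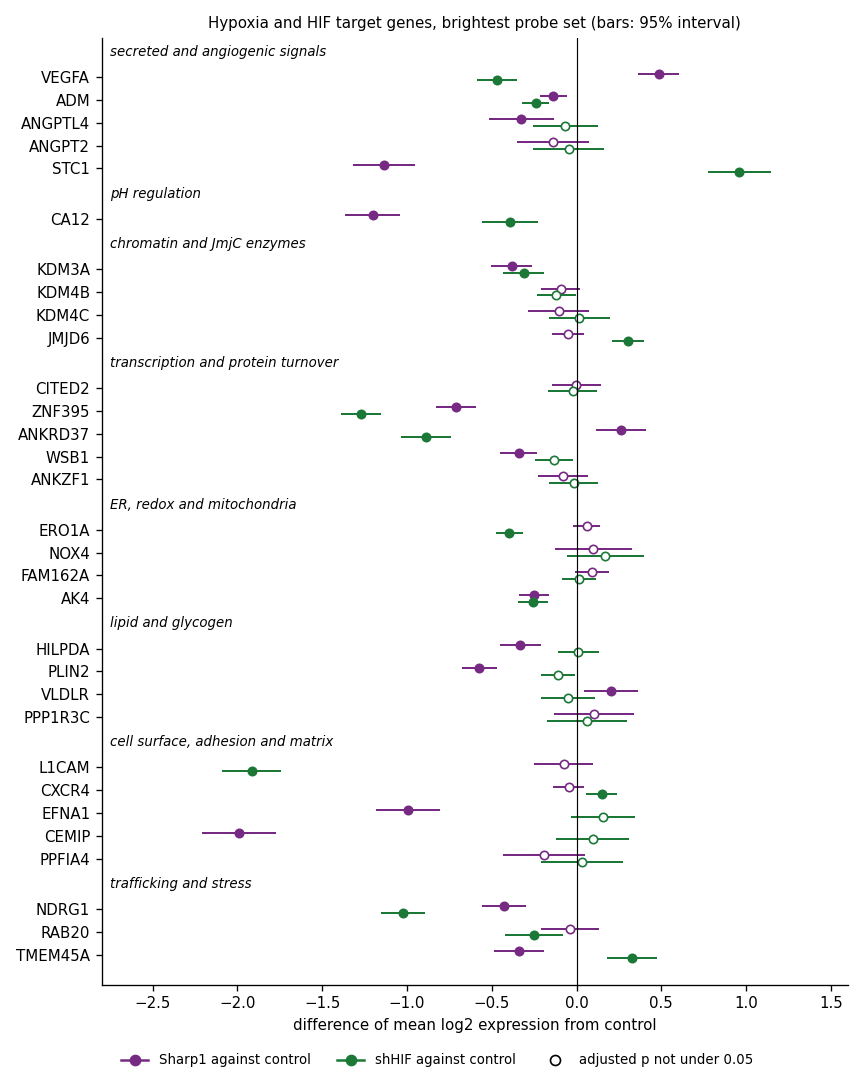
Difference of mean log2 expression from control (horizontal axis) for the 31 measured genes, grouped by role, in Sharp1 (purple) and shHIF cells (green). Points are estimates from 4 arrays per group, bars are 95% intervals of limma's fit without adjustment for the number of genes, and open points did not pass the test. CEMIP at -1.99 in Sharp1 and L1CAM at -1.92 in shHIF are the lowest, and STC1 lies on opposite sides of 0.

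These counts are read against all genes. Because the list was made with earlier results of these data known, the shares describe it and are no independent support for it. In Sharp1 54.8% of the members and 27.2% of all genes were called, and in shHIF 48.4% and 30.8%. Over all genes, 11.8% were called lower and 15.3% higher in Sharp1, against 45.2% and 9.68% of the members. In shHIF the shares were 13.2% lower and 17.6% higher over all genes, against 35.5% and 12.9% of the members. Bright genes are called more often. Among the 25 members at or above the median gene (6.59), 13 or 52.0% fell in Sharp1 and 11 or 44.0% fell in shHIF, where all genes at that level gave 19.6% and 23.0%. Of the same 25, 3 or 12.0% rose in Sharp1 and 4 or 16.0% rose in shHIF, against 26.3% and 27.0% of all genes. The median difference of the members was -0.14 in Sharp1, where that of all genes was 0.00, and -0.05 in shHIF, where that of all genes was 0.05. Arrays did not overlap with control for 17 members in Sharp1 and 16 in shHIF, with 28.9% and 28.6% of all genes so separated. With both arrays of low spike-in signal (shHIF A and D) left out, 13 members fell and 5 rose in shHIF cells, where that fit called 10.1% of all genes lower and 15.5% higher. Both comparisons use the same 4 control arrays, so their values are given side by side, and whether a gene differed between the lines was tested directly.

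Tested directly, Sharp1 cells were higher than shHIF cells for 9 members and lower for 11, while 11 did not pass. The called share was 64.5%, against 38.4% of all genes. Over all genes 18.0% were higher and 20.4% lower, against 29.0% and 35.5% of the members. At or above the median gene, 9 of 25 members were higher and 10 lower, against 31.0% and 29.5% of all genes. The extremes were STC1 (-2.10) and CEMIP (-2.08) on the low side and L1CAM (1.84) and ANKRD37 (1.15) on the high side. Arrays of both lines did not overlap for 18 members, or 58.1%, against 35.4% of all genes.

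HIF dimers are known to bind a core motif, ACGTG or GCGTG, and Sharp1 binds the E-box CACGTG, which contains ACGTG on both strands. The 250 bases before the most upstream listed start site were read for 22 members that matched the RefSeq promoter table (GRCh38.p14), and either core was present on either strand in 19 of 22, or 86.4%, against 43.1% of the 27305 genes in the table. ACGTG was present in 54.5% of the members and 18.6% of all, GCGTG in 63.6% and 31.9%, and CACGTG in 40.9% and 6.46%. Median GC content of these windows was 69.4% in the members and 57.6% in all, and its part in the shares was not tested. The members were listed as known hypoxia-induced or direct HIF targets, so the choice itself favours HIF cores in their windows. The shares are therefore a description of the list and no separate support for it. A match describes letters in the window and is not a binding site. NOX4, L1CAM and TMEM45A held none of these letters there. The table gave no entry for VEGFA, ANGPT2, STC1, JMJD6, ZNF395, ANKZF1, HILPDA, NDRG1 and RAB20.

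**Figure D2:**
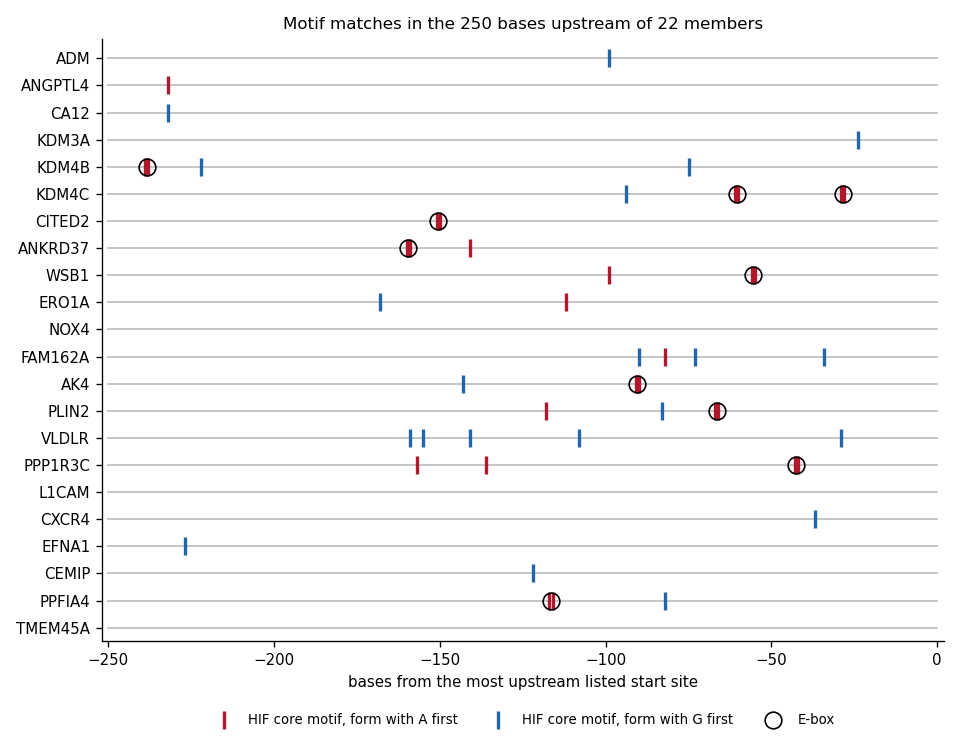
Positions of the HIF core motif (red where it starts with A, blue where it starts with G, either strand) and of the E-box (circles) in the 250 bases upstream of 22 members, with the distance to the most upstream start site in bases on the horizontal axis. Of the 22 windows, 9 hold an E-box and 3 are empty.

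The windows of 8 members with called changes are shown because they span the patterns described next, with every match to a core motif or E-box in capitals, on the strand of the gene, 5′ to 3′. They lie at chr11:10304823-10305072, plus strand (ADM), chr15:63381847-63382096, minus strand (CA12), chr2:86441121-86441370, plus strand (KDM3A), chr1:65147302-65147551, plus strand (AK4), chr4:185396591-185396840, plus strand (ANKRD37), chrX:153876015-153876264, minus strand (L1CAM), chr15:80779120-80779369, plus strand (CEMIP) and chr1:155127626-155127875, plus strand (EFNA1) in GRCh38.p14. ADM, CA12, KDM3A and AK4 were called lower in each line, ANKRD37 moved in opposite directions, L1CAM was called in shHIF alone of the comparisons with control, and CEMIP and EFNA1 in Sharp1 alone. Other patterns are not shown, such as those of TMEM45A (lower in Sharp1, higher in shHIF), CXCR4 (higher in shHIF alone) and VLDLR (higher in Sharp1 alone).
ADM: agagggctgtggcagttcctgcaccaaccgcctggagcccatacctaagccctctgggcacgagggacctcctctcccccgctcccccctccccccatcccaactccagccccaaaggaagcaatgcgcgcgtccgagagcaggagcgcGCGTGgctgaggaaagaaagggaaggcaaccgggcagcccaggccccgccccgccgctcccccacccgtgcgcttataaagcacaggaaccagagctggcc
CA12: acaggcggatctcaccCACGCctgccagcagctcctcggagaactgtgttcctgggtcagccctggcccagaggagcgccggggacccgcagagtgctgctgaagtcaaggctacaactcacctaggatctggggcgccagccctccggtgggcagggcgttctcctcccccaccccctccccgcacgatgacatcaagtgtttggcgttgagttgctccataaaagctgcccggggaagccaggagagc
KDM3A: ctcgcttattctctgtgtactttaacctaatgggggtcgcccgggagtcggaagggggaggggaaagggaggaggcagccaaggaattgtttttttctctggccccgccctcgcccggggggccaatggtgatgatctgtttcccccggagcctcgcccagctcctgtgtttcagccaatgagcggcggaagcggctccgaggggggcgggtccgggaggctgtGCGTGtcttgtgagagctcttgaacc
AK4: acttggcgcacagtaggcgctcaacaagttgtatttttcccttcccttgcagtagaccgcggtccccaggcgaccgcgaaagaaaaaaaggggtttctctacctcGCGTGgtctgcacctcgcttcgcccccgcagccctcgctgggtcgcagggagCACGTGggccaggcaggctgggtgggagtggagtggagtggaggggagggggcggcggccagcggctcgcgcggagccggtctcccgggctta
ANKRD37: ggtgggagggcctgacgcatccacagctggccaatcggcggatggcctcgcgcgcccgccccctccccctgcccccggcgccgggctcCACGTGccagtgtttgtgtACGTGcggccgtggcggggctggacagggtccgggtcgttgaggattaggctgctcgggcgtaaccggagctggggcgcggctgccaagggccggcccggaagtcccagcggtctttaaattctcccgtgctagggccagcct
L1CAM: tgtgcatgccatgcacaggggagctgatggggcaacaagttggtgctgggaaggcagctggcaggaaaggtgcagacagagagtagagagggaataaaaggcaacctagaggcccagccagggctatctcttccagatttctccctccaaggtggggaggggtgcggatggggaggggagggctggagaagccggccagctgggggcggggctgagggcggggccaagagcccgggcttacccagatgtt
CEMIP: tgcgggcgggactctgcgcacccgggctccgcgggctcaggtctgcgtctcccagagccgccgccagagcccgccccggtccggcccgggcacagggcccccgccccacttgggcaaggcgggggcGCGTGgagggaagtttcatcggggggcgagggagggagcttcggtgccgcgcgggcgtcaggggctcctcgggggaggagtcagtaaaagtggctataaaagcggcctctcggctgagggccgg
EFNA1: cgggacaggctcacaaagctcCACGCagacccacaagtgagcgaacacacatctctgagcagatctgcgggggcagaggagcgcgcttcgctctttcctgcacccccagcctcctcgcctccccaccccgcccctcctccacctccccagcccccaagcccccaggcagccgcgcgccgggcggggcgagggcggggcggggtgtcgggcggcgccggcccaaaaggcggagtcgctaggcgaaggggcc
AK4 carries 1 GCGTG and, downstream of it, 1 E-box, and ANKRD37 carries 1 E-box and, downstream of it, 1 further ACGTG. ADM, KDM3A and CEMIP carry 1 GCGTG each, CA12 and EFNA1 carry it on the opposite strand, where it reads CACGC as printed, and L1CAM carries no match.

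Among the secreted and angiogenic signals, 3 of 5 fell and 1 rose in Sharp1 cells, and 2 fell and 1 rose in shHIF cells. Over all genes 11.8% fell and 15.3% rose in Sharp1, and 13.2% and 17.6% in shHIF. Counts by role, here and below, cover 5 genes or fewer, stand beside these same shares and say little about a role. VEGFA, the main growth factor for vascular endothelium, read 10.75, 10.75, 10.71 and 10.79 on control arrays A to D. It read 10.27, 10.36, 10.43 and 10.07 in shHIF and 11.30, 11.18, 11.17 and 11.28 in Sharp1. Every shHIF array lay below and every Sharp1 array above the controls, so VEGFA rose 1.4-fold in Sharp1 (log2 0.48, SE 0.06, adjusted p = 1.35e-07) and fell 1.38-fold in shHIF (log2 -0.47, SE 0.06, adjusted p = 2.74e-07). Its other 3 probe sets differed in the same directions, with 1 of them called higher in Sharp1 and 2 called lower in shHIF. STC1, a secreted glycoprotein hormone that acts on calcium and phosphate, read 8.51, 8.36, 8.39 and 8.47 in control. The 4 shHIF arrays read 9.44, 9.38, 9.30 and 9.45, and the 4 Sharp1 arrays read 7.41, 6.91, 7.40 and 7.47. The groups were wholly separate, with STC1 2.2-fold lower in Sharp1 (log2 -1.14, SE 0.09, adjusted p = 1.09e-10) and 1.95-fold higher in shHIF (log2 0.96, SE 0.09, adjusted p = 3.64e-09). All 3 STC1 probe sets were called the same way, between -1.14 and -0.73 in Sharp1 and between 0.61 and 0.96 in shHIF.

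ADM, the vasodilator peptide adrenomedullin, changed little but with tight replicates: its mean was 11.95 ± 0.03 in control, 11.71 ± 0.05 in shHIF and 11.81 ± 0.05 in Sharp1 (SD, n = 4). It was lower in Sharp1 (log2 -0.14, adjusted p = 0.00422) and in shHIF (-0.24, adjusted p = 7.64e-06). The direct difference between the lines was 0.10 (adjusted p = 0.0225), which was lost without shHIF C (adjusted p = 0.077) or Sharp1 B (0.0936). ANGPTL4, an inhibitor of lipoprotein lipase that is also made under hypoxia, fell in Sharp1 (log2 -0.33, SE 0.09, adjusted p = 0.00672) on both probe sets. In shHIF its difference was -0.07 (95% interval -0.25 to 0.12), and the direct difference of -0.26 (adjusted p = 0.0233) was lost without shHIF D (0.0996), without Sharp1 A (0.102) or with arrays centred on their medians (0.0526). ANGPT2, a ligand of the endothelial receptor TEK, read 4.30 to 4.44 in the group means, below the median probe set, and was not called on any of its 4 probe sets.

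CA12 is a membrane-bound carbonic anhydrase that helps cells export acid, and it was the measured member for pH regulation. Its arrays read 8.22, 8.28, 8.31 and 8.54 in control, 7.91, 8.01, 7.98 and 7.90 in shHIF and 6.94, 7.13, 7.16 and 7.30 in Sharp1. All shHIF arrays lay below all controls and all Sharp1 arrays lay lower still. CA12 fell 2.3-fold in Sharp1 (log2 -1.20, SE 0.08, adjusted p = 3.72e-12) and 1.31-fold in shHIF (log2 -0.39, SE 0.08, adjusted p = 2.64e-04), and Sharp1 was below shHIF by 0.81 on the log2 scale (adjusted p = 3.22e-09). Across 7 probe sets, limma called 5 lower in Sharp1 and 4 in shHIF. Among the 5 the difference in Sharp1 ran from -1.60 to -0.61, and the remaining 2 read between 4.99 and 5.55 in every group mean.

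The Jumonji-type enzymes, which use oxygen to demethylate or hydroxylate proteins, moved little. KDM3A, a histone H3 lysine 9 demethylase, averaged 8.95 ± 0.09 in control, 8.64 ± 0.05 in shHIF and 8.57 ± 0.06 in Sharp1 (SD, n = 4). It fell in Sharp1 (log2 -0.38, adjusted p = 6.31e-06) and in shHIF (-0.31, adjusted p = 9.09e-05), and the direct difference was -0.07 (95% interval -0.18 to 0.05). Both calls were lost when its 2 probe sets were averaged (adjusted p = 0.102 and 0.0835), the other of which read 2.98 to 3.08. JMJD6, a lysyl hydroxylase of splicing factors, rose in shHIF (log2 0.30, adjusted p = 4.37e-06), where its arrays read 10.08, 10.11, 10.02 and 10.10 against 9.75, 9.82, 9.75 and 9.78 in control. In Sharp1 JMJD6 differed by -0.05 (adjusted p = 0.458), and Sharp1 was below shHIF by 0.35 (adjusted p = 2.16e-07). A second JMJD6 probe set was called in both lines, 0.24 in shHIF and -0.18 in Sharp1 (adjusted p = 0.0345 over all probe sets). KDM4B and KDM4C, demethylases of histone H3 lysine 9 and 36, were not called against control on any of their 8 and 4 probe sets. On the brightest, the 95% intervals in shHIF, not adjusted for the number of genes, were -0.23 to -0.01 for KDM4B and -0.16 to 0.19 for KDM4C.

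Among regulators of transcription and protein turnover, 2 of 5 fell and 1 rose in Sharp1, and 2 fell in shHIF. ZNF395, a hypoxia-induced transcription factor, read 10.12, 10.15, 10.16 and 10.11 in control, 8.71, 8.96, 8.85 and 8.94 in shHIF and 9.36, 9.35, 9.49 and 9.50 in Sharp1. The 3 groups did not overlap, and shHIF was the lowest. Its fall was 2.41-fold in shHIF (log2 -1.27, SE 0.05, adjusted p = 6.04e-15) and 1.64-fold in Sharp1 (log2 -0.71, SE 0.05, adjusted p = 1.05e-10). A second probe set also fell, by 0.66 and 0.52, but its direct difference between the lines was 0.14 (adjusted p = 0.176 over all probe sets), against 0.56 on the brightest. The remaining probe set read 3.57 to 3.83 and was not called. ANKRD37, an ankyrin-repeat protein and known direct HIF1 target, read 8.51, 8.46, 8.46 and 8.72 in control, 7.53, 7.84, 7.60 and 7.63 in shHIF and 8.72, 8.83, 8.83 and 8.82 in Sharp1. It fell 1.85-fold in shHIF (log2 -0.89, SE 0.07, adjusted p = 2.75e-10) and was 0.26 higher in Sharp1 (adjusted p = 0.00459), where the lowest Sharp1 array stood only just above the highest control, both 8.72 when rounded. The rise was not seen on its dim second probe set (-0.14, adjusted p = 0.512 over all probe sets), and averaging both ended the call (adjusted p = 0.551). The fall in shHIF was called on both.

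WSB1, the substrate receptor of a ubiquitin ligase, fell in Sharp1 (log2 -0.34, SE 0.05, adjusted p = 8.33e-06), but only 1 of its 5 probe sets was called, and a probe set of like signal differed by -0.08 (adjusted p = 0.307 over all probe sets). The call was lost with the mean of its probe sets (adjusted p = 0.169) and on the dim one left without x_at and s_at probe sets (0.735). Directly, Sharp1 was below shHIF by 0.21 (adjusted p = 0.00171), a sign that turned with that mean. In shHIF WSB1 differed by -0.13 (adjusted p = 0.0501), which passed in 11 of 21 alternatives its adjusted p ranging from 0.0338 to 0.695. A dim WSB1 probe set, at 5.41 in control, was called lower in shHIF (-0.47, adjusted p = 0.0277 over all probe sets). CITED2, which competes with HIF alpha for the coactivators CREBBP and EP300, averaged 10.58 ± 0.04 in control, 10.56 ± 0.21 in shHIF and 10.58 ± 0.09 in Sharp1 (SD, n = 4). It was not called in either line on any of 3 probe sets, though its shHIF arrays spread over 10.32 to 10.78. Without shHIF A and D it was higher in shHIF, by 0.15 (adjusted p = 0.0418). ANKZF1, which releases stalled peptides from ribosomes, differed by -0.08 in Sharp1 and -0.02 in shHIF, with intervals of -0.22 to 0.06 and -0.16 to 0.12.

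For the endoplasmic reticulum, redox and mitochondrial members, 1 of 4 fell in Sharp1 and 2 in shHIF. AK4, a mitochondrial adenylate kinase, averaged 10.47 ± 0.02 in control, 10.22 ± 0.04 in shHIF and 10.22 ± 0.04 in Sharp1 (SD, n = 4). On the brightest probe set the falls were -0.25 in Sharp1 (adjusted p = 1.62e-05) and -0.26 in shHIF (adjusted p = 1.39e-05), and the direct difference had a 95% interval of -0.08 to 0.09. All 4 probe sets were called lower in Sharp1 (-0.37 to -0.25), whereas 1 of 4 was called in shHIF, and with their mean the shHIF call was lost (adjusted p = 0.0802) while Sharp1 lay below shHIF (-0.17, adjusted p = 0.0131). ERO1A, the oxidase that makes disulphide bonds in the endoplasmic reticulum, gave opposite readings on its probe sets. The brightest read 10.92, 10.94, 10.89 and 10.92 in control and 10.53, 10.49, 10.52 and 10.55 in shHIF, wholly separate, with a fall of 0.40 (SE 0.04, adjusted p = 4.51e-09). Another, with a control mean of 10.79, was called higher in shHIF by 0.16 (adjusted p = 0.0107 over all probe sets) and lower in Sharp1 by 0.15 on the log2 scale (adjusted p = 0.0166), and the last was not called. No direction is therefore given for ERO1A as a gene, although its brightest probe set is among the counts. Directly, Sharp1 was above shHIF by 0.46 on the brightest and below it on the other (-0.31), with both called.

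FAM162A, a mitochondrial protein linked to cell death under hypoxia, averaged 11.44 to 11.53 in the 3 groups and was not called on the 3 bright probe sets. A dim one, at 5.24 in control, was called higher in Sharp1 (0.44, adjusted p = 0.0134 over all probe sets). NOX4, an oxidase that makes hydrogen peroxide, read 3.28 to 3.45 in the group means, below the median probe set, and was not called.

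Of the lipid and glycogen members 2 of 4 fell and 1 rose in Sharp1 cells, and 0 of 4 were called in shHIF, where limma's unadjusted p was under 0.05 for 1. PLIN2, which coats lipid droplets, read 10.73, 10.68, 10.72 and 10.88 in control. It read 10.61, 10.65, 10.56 and 10.74 in shHIF and 10.16, 10.17, 10.17 and 10.22 in Sharp1. The Sharp1 arrays were all below the others, a 1.49-fold fall (log2 -0.57, SE 0.05, adjusted p = 3.06e-10), while shHIF overlapped control (-0.11, adjusted p = 0.0754). Without shHIF D alone that difference passed (adjusted p = 0.0176), as it did without shHIF A and D (0.0413), so PLIN2 in shHIF depends on 1 array. The direct difference was -0.46 (adjusted p = 8.29e-09). HILPDA, a lipid droplet protein that inhibits the fat-splitting lipase, fell in Sharp1 by 0.33 (SE 0.06, adjusted p = 3.58e-05) on the brightest and by 0.36 on the other probe set. In shHIF it differed by 0.01 (95% interval -0.10 to 0.12), and the lines differed by -0.34 (adjusted p = 1.49e-05).

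VLDLR, a receptor that takes up triglyceride-rich lipoproteins, rose by 0.20 in Sharp1 (adjusted p = 0.0441), but its arrays overlapped control. The call was lost in 9 of 20 alternatives, among them without any 1 of the 4 control arrays or without Sharp1 A, C or D, with adjusted p from 0.00669 to 0.141. Without it, 2 members rose in Sharp1 in place of 3. PPP1R3C, which targets a phosphatase to glycogen, read 5.89 to 6.00 in the group means and was not called.

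The surface and matrix members held the largest change from control in either line. Of the 5, 2 fell in Sharp1, while 1 fell and 1 rose in shHIF. L1CAM, a neural adhesion molecule that carcinoma cells use to attach to endothelium, read 9.32, 9.28, 9.20 and 9.45 in control and 9.11, 9.33, 9.28 and 9.22 in Sharp1, which overlap. The shHIF arrays read 7.08, 7.58, 7.50 and 7.41, far below both. L1CAM was 3.77-fold lower in shHIF (log2 -1.92, SE 0.08, adjusted p = 6.04e-15), and 3.58-fold higher in Sharp1 than in shHIF (log2 1.84, SE 0.08, adjusted p = 2.44e-15), with a difference from control of -0.08 in Sharp1 (95% interval -0.24 to 0.09). Its dimmer probe set, at 6.02 in control, differed by -0.16 in shHIF (adjusted p = 0.228 over all probe sets). CEMIP, a hyaluronan-degrading protein, read 7.51, 7.54, 7.48 and 7.67 in control, 7.41, 7.65, 7.86 and 7.65 in shHIF and 5.41, 5.33, 5.63 and 5.87 in Sharp1. The Sharp1 arrays alone stood apart, a 3.97-fold fall (log2 -1.99, SE 0.10, adjusted p = 7.00e-14) to near the median probe set. CEMIP in shHIF differed by 0.09 (95% interval -0.12 to 0.31), and the direct difference was -2.08 (adjusted p = 1.88e-14). A second probe set read 5.10 to 5.32 and was not called.

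EFNA1, a membrane ligand of Eph receptors, read 6.99, 6.96, 6.84 and 7.04 in control, 6.93, 7.19, 7.17 and 7.19 in shHIF and 5.79, 6.18, 5.92 and 5.95 in Sharp1. It fell 1.99-fold in Sharp1 (log2 -0.99, SE 0.09, adjusted p = 2.04e-09), with no overlap, while in shHIF it differed by 0.16 (adjusted p = 0.198). The lines differed by -1.15 (adjusted p = 8.22e-11). CXCR4, the receptor of the chemokine CXCL12 and a driver of homing in breast cancer cells, was slightly higher in shHIF (0.15, adjusted p = 0.00686) on all 3 probe sets, a call lost without a trend in the prior (0.0542). Its difference in Sharp1 was -0.05 (95% interval -0.13 to 0.04), and Sharp1 was below shHIF by 0.20 (adjusted p = 4.16e-04). PPFIA4, a scaffold of the liprin family, read 4.13 to 4.35 in the group means, below the median probe set, and was not called.

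**Figure D3:**
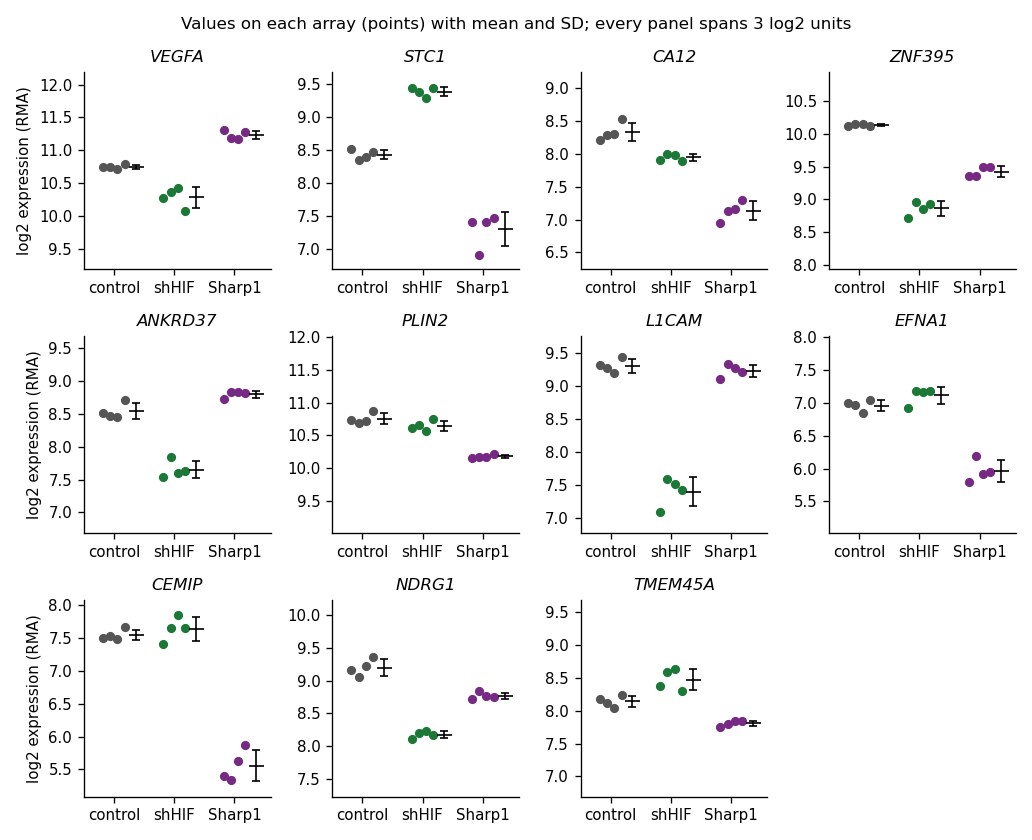
Log2 expression on each array (vertical axis, 3 log2 units in every panel) for the 11 members with a called difference of 0.5 or more between any 2 groups. Points are single arrays, and the bar beside them is the mean with its SD over 4 arrays. STC1, VEGFA, ANKRD37 and TMEM45A have control between both lines, L1CAM is low in shHIF only, and CEMIP, EFNA1 and PLIN2 are low in Sharp1.

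All 3 members of trafficking and stress were called in shHIF and 2 in Sharp1, where 30.8% and 27.2% of all genes were called. NDRG1, a stress protein strongly induced by hypoxia, read 9.15, 9.06, 9.22 and 9.36 in control, 8.10, 8.19, 8.22 and 8.17 in shHIF and 8.73, 8.84, 8.77 and 8.75 in Sharp1. The groups did not overlap and shHIF was the lowest, with a 2.03-fold fall in shHIF (log2 -1.02, SE 0.06, adjusted p = 1.82e-12) and a 1.34-fold fall in Sharp1 (log2 -0.43, SE 0.06, adjusted p = 3.14e-06). The direct difference was 0.60 (adjusted p = 8.26e-09). TMEM45A, a membrane protein induced by hypoxia, read 8.17, 8.13, 8.05 and 8.24 in control, 8.38, 8.59, 8.63 and 8.31 in shHIF and 7.76, 7.80, 7.84 and 7.84 in Sharp1. It was higher in shHIF (log2 0.33, SE 0.07, adjusted p = 5.68e-04) and lower in Sharp1 (log2 -0.34, SE 0.07, adjusted p = 4.18e-04), again without overlap, and differed between the lines by -0.67 (adjusted p = 1.62e-08). RAB20, a small GTPase of endosomes, fell by 0.25 in shHIF (adjusted p = 0.0169) with overlapping arrays. That call was lost without control B (0.0669), control D (0.0641) or shHIF A (0.0944), with the mean of both probe sets (0.51) and without a trend in the prior (0.0623). RAB20 was higher in Sharp1 than in shHIF by 0.21 (adjusted p = 0.0362), a call lost in 7 of 21 alternatives. Among these were the fits without shHIF A (0.18), shHIF C (0.0695) or Sharp1 B (0.157). The rest were the mean of both probe sets, no trend in the prior, only the 2 groups compared, and leaving out shHIF A and D. In limma's fit over all probe sets the same probe set did not pass (adjusted p = 0.0532).

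Over all 87 probe sets of the members, limma called 28 lower and 4 higher in Sharp1, or 36.8%, against 18.1% of all probe sets, of which 8.26% were lower and 9.82% higher. In shHIF it called 19 lower and 10 higher, or 33.3%, against 22.2%, with 11.5% lower and 10.7% higher. Between the lines it called 27 lower and 14 higher in Sharp1, or 47.1%, against 29.1%, with 13.8% lower and 15.3% higher. Of 24 members with more than 1 probe set, 7 had 2 or more called in 1 direction in Sharp1 and 7 in shHIF. Only 1 probe set was called for 8 members in Sharp1 and 5 in shHIF, and none for 9 and 11. The like shares over all genes with several probe sets were not computed, so these counts only describe the members. Against control ERO1A alone had probe sets called both ways in 1 comparison, in shHIF, and in the direct comparison KDM4B did as well.

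**Figure D4:**
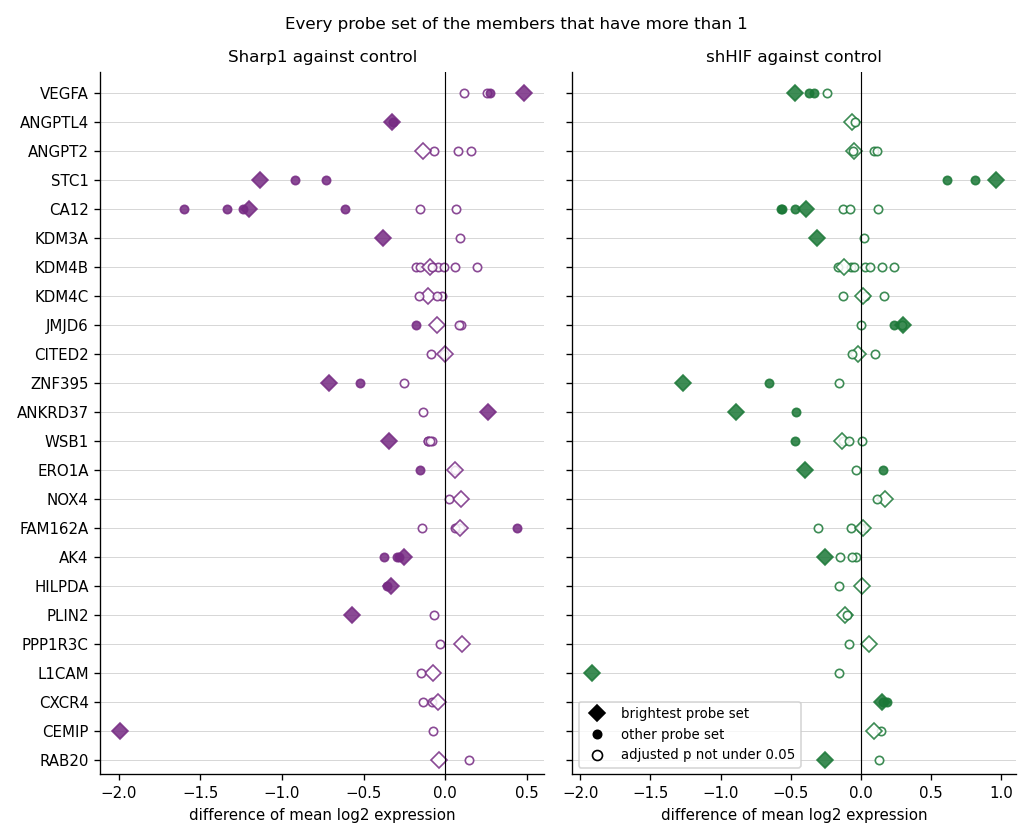
Difference of mean log2 expression from control (horizontal axis) on each probe set of the 24 members with more than 1, in Sharp1 (left) and shHIF cells (right). Diamonds are the brightest probe sets, circles the others, and open symbols did not pass at an adjusted p under 0.05 over all probe sets. The 3 probe sets of STC1 lie together on both sides, whereas those of CEMIP, L1CAM and ERO1A are apart.

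Of 17 HIF pathway components, 2 rose and 3 fell in Sharp1, among them EPAS1, the prolyl hydroxylase EGLN1 (0.33) and the ubiquitin ligase SIAH2 (-0.42), and 4 rose and 4 fell in shHIF, where ARNT, the partner of both alpha subunits, was at -0.53 (adjusted p = 9.04e-05). The called share of these components was 29.4% in Sharp1 and 47.1% in shHIF, against 27.2% and 30.8% of all genes. Their median level was 8.34, above the median gene, though EGLN2, EGLN3 and HIF3A lay below it. In Sharp1 17.6% of the components fell and 11.8% rose, against 19.6% and 26.3% of genes at or above the median gene. In shHIF 23.5% fell and 23.5% rose, against 23.0% and 27.0%, so neither share was above that of bright genes as a whole by much. The 4 falls in shHIF include HIF1A (-0.73) and EPAS1 (-2.85), the genes the hairpins target, so the design itself adds to the called share in shHIF. Of 19 measured hypoxia genes outside the set, such as collagen modifiers and mitophagy receptors, 10 fell and 6 rose in Sharp1, and 9 fell and 5 rose in shHIF. These are 52.6% lower and 31.6% higher in Sharp1, against 11.8% and 15.3% of all genes, and 47.4% and 26.3% in shHIF, against 13.2% and 17.6%. Each of the 19 averaged 7.57 or more over all arrays, above the median gene. Of all genes at or above that median, 19.6% fell and 26.3% rose in Sharp1, and 23.0% and 27.0% in shHIF. The shares of rises were thus near those of genes at that level. In Sharp1 the largest falls were those of MXI1, an antagonist of MYC (-1.86), and BNIP3, a mitophagy receptor (-1.75), and the largest rises those of PLAUR, the urokinase receptor (0.81), and LOX, which crosslinks collagen (0.80). In shHIF IGFBP3, which binds insulin-like growth factors (-0.83), and LOXL4, a relative of LOX (-0.74), fell most, and HMOX1, which degrades haem (0.80), rose most. IGFBP3 rose in Sharp1 (0.67), and its direct difference between the lines was 1.50 (adjusted p = 2.81e-19).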

How the data were processed

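RNA of 12 samples was measured on whole-genome Affymetrix arrays. The authors deposited log2 expression values, and RMA is named in the submitters' processing notes with no version. RMA corrects background, normalizes across arrays and summarises each probe set. Arrays have no read depth, and their number limits the precision.

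Names came from the platform's probe table: of 54675 probe sets, 62 are controls, 41091 carried 1 symbol, 1801 several and 11721 none, and only the first kind was used for genes. All 31 members' symbols matched the RefSeq gene table by gene ID. A gene was represented by its brightest probe set across the 12 arrays, and every probe set of the members in a second fit over 54613 probe sets.

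In R 4.3.3 with limma 3.58.1, a mean per group was fitted to all 12 arrays and contrasts were tested with eBayes and a trend, with Benjamini-Hochberg adjustment over all genes or probe sets. The fit was tested on simulated data. No replicate block was used: samples with the same letter did not deviate together (correlations of -0.18 to 0.14, 1 of 12 above 0.1). Alternatives changed the array centring, the filter on dim genes, the choice of probe set, the prior, the arrays in the fit, array weights and the block, and left out arrays.

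The members and lists were chosen with earlier results of these data known. Every member is reported, those with a called difference of 0.5 or more between any 2 groups by array. The 8 promoters shown were chosen after the values were seen. The alternative without shHIF A and D was chosen for their low spike-in signal.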

Additional observations from a re-analysis of the deposited data

Results flagged for a closer look

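Of 93 sets of 4 arrays (31 members in 3 groups), 6 held an array far from the other 3 by Dixon's test, where chance gives about 1 in 20. STC1 read 6.91 on Sharp1 B, against 7.40 to 7.47 on the other Sharp1 arrays, and without that array its difference from control was -1.01. ANKRD37 read 8.72 on Sharp1 A, against 8.82 to 8.83, and without it the difference was 0.29 (limma, adjusted p = 0.00486). EFNA1 read 6.93 on shHIF A, against 7.17 to 7.19, and without it the difference of shHIF from control was 0.22 (limma, adjusted p = 0.0735). KDM4C read 6.36 on shHIF B, against 6.23 to 6.24. ANGPT2 read 4.12 on Sharp1 A, against 4.35 to 4.37, and NOX4 read 3.20 on shHIF C, against 3.52 to 3.57, both among dim readings.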

How the results depend on the processing

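Up to 21 alternatives gave each member a value, fewer where a filter left it no probe set, and under all that did, 11 of 17 calls in Sharp1, 10 of 15 in shHIF and 12 of 20 between the lines held. Leaving out probe sets whose names end in x_at or s_at, which can bind related transcripts, left 23 members, and the count of falls was 7 in Sharp1, 7 in shHIF and 7 in Sharp1 against shHIF, with medians of -0.072, -0.087 and -0.0042 in place of -0.138, -0.052 and -0.070. That fit called 9.62%, 13.4% and 16.5% of all genes lower, in the same order. In Sharp1 2 of the 23 rose, where 13.7% of all genes did. There ZNF395 in Sharp1 against shHIF turned to -0.096, on its dim probe set, and the calls of ZNF395 in both lines and of CEMIP and WSB1 in Sharp1 were lost, while FAM162A was called higher in Sharp1 (0.44, adjusted p = 0.00877). Between the lines CEMIP and WSB1 lost their calls and FAM162A and KDM4B gained one. Without dim genes, 28 members gave medians of -0.088 in shHIF and -0.029 between the lines, and with arrays centred the latter was -0.037. Leaving out single arrays gave medians of -0.154 to -0.103 in Sharp1 and -0.094 to -0.033 between the lines. With the mean of all probe sets, Sharp1 against shHIF turned to 0.017 for WSB1 (adjusted p = 0.873) and -0.174 for AK4. Without shHIF A and D, CITED2 turned to 0.147 in shHIF and -0.148 between the lines. Apart from the fewer genes tested, the cause was not tested. With the replicate block, 14 members fell and 2 rose in Sharp1 and 11 fell and 4 rose in shHIF, and between the lines 11 were lower and 9 higher in Sharp1. Of all genes, that fit called 11.4% lower and 14.8% higher in Sharp1, 12.9% and 16.9% in shHIF, and 19.6% and 17.7% between the lines. There VLDLR in Sharp1 lost its call, and no other call of a member changed. The 3 dimmest members, ANGPT2, NOX4 and PPFIA4, lay below the median probe set in every group, so changes in them could not be detected well.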
